A study of Mus musculus with 9 samples.

Results

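The genes described here are 36 genes of the endoplasmic reticulum (ER) and the unfolded protein response: 5 for the stress sensors and Xbp1, 14 for chaperones and folding enzymes, 8 for ER-associated degradation and 9 for the translocon and signal peptidase. They were chosen by gene symbol, and each gene was read by the Affymetrix probe set with the highest mean over all arrays among those that carried its symbol alone. In this way 35 of the 36 were measured, out of 18193 genes on the array. Sec61g, a subunit of the translocon, was read by 1 probe set that carried 3 symbols, and it is not given a value.

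RNA came from intestinal epithelial cells of untreated newborn mice at postnatal day 0, with 3 arrays for each of 3 genotypes. Control pups were Tfr1 fl/fl, labelled wildtype. Knockout pups were Tfr1 IEC-KO, which lack the transferrin receptor Tfr1 in intestinal epithelium. Rescue pups were Tfr1 IEC-KO;ROSA26 Tfr1R654A/+, so they share the deletion and add a Tfr1 with a change that weakens its binding of transferrin. The sources used here name neither the Cre driver nor whether an array holds 1 pup or a pool. P-values thus reflect only how far arrays of a group spread, which may be technical.

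The ER folds proteins bound for secretion and for membranes, and enterocytes and goblet cells both send large amounts of protein through it. When unfolded protein accumulates, the sensors Atf6, Ern1 (IRE1α), Ern2 (IRE1β) and Eif2ak3 (PERK) start the unfolded protein response. Ern1 and Ern2 splice the mRNA of the transcription factor Xbp1, Eif2ak3 slows translation, and Atf6 is cut to release a transcription factor. Atf6 and spliced Xbp1 then raise the genes of chaperones, of degradation and of the translocon.

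Atf6 is known to act through the ER stress response element (ERSE), which joins CCAAT to CCACG across 9 bases. The shorter ERSE-II joins ATTGG to CCACG across 1 base. Windows from 250 bases before to 50 after the start of a gene were searched on both strands in RefSeq sequence of the build GRCm38.p6, and 28 of the 36 genes had such a window. An exact ERSE stood in 9 of these 28 genes (32.1%), against 37 of 27025 genes with a window (0.137%). It was found in 7 of 12 chaperone genes, 2 of 7 degradation genes, 0 of 6 translocon genes and 0 of 3 sensor genes. ERSE-II stood in Herpud1 and Dnajb11 (7.14% of the 28), against 0.0444% of all genes with a window. The match in Herpud1 lies before the start of the gene, and that in Dnajb11 lies after the start. TGACGTGG, the core of the unfolded protein response element, was found in 0 of the 28 and in 0.714% of all genes; these letters are not in the windows, which says nothing of the factor.

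The stretches below carry the element in 4 chaperone genes and 2 degradation genes whose changes in the knockout ranged from below 0 to above it. Capitals mark the 2 ends of the ERSE, or of ERSE-II in Herpud1, and each line reads 5′ to 3′ along the gene. Where the element lies on the opposite strand, as in Creld2, its ends read CGTGG and ATTGG. The stretches are Hspa5 at chr2:34771995-34772073, Pdia6 at chr12:17266461-17266539, Dnajc3 at chr14:118937797-118937875, Creld2 at chr15:88819490-88819568, Syvn1 at chr19:6046502-6046575 and Herpud1 at chr8:94386347-94386417, all on the plus strand of GRCm38.p6. Between the last base of the element and the start lie 46 bases in Hspa5, 79 in Pdia6, 86 in Dnajc3, 107 in Creld2, 25 in Syvn1 and 41 in Herpud1.
Hspa5: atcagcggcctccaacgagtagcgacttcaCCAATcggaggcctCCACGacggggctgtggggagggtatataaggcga
Pdia6: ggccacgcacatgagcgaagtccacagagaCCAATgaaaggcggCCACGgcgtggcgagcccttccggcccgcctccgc
Dnajc3: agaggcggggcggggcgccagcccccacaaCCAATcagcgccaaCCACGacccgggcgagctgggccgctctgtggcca
Creld2: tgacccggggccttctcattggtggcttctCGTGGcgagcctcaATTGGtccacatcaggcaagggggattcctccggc
Syvn1: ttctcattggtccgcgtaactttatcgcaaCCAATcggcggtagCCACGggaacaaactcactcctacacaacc
Herpud1: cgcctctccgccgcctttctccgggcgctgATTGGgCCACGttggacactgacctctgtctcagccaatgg

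The labelled cell type was borne out by its markers: Krt8, a keratin of simple epithelium, read 13.02 to 13.89 on the log2 scale over the 9 arrays, and Epcam 12.91 to 13.55. Arrays correlated within a group with r of 0.994 to 0.996 for control, 0.951 to 0.985 for knockout and 0.987 to 0.990 for rescue (computed across genes, not replicates). Fibroblast markers set the knockout arrays apart. Their median lay 3.96, 3.18 and 0.12 (log2) above the control mean in knockout arrays 1, 2 and 3, and 1.26, 0.50 and 0.70 above it in the rescue arrays. Xist, a transcript of the inactive X chromosome, read 12.02 to 12.75 in control and knockout arrays and 6.45 to 6.83 in rescue arrays. Eif2s3y, a gene of the Y chromosome, read 2.34 to 2.88 and 9.36 to 9.70, so rescue and sex cannot be told apart. The chosen probe set of Tfrc, the gene of Tfr1, did not differ detectably between knockout and control (0.04 ± 0.51 log2, adjusted p = 0.97), while another probe set read 10.74 to 10.91 in rescue arrays and 5.57 to 6.29 in all others. The exons that the probe sets read were not analysed here, so these values do not check the deletion.

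The comparison of knockout with control asks how ER genes stand in newborn epithelium without Tfr1. Transcripts of 6 ER genes fell and 0 rose, and 4 of the 6 were chaperones or folding enzymes: Sdf2l1, Pdia4, Dnajb11 and Pdia6. The others were Sel1l, the adaptor of the main ER ubiquitin ligase, and Ssr2, a subunit of the translocon-associated complex. The falls were 1.31-fold to 1.67-fold. They make up 17.1% of the 35 genes, against 8.77% of all genes that fell in this comparison and 14.1% called in either direction (limma, adjusted p under 0.05). At an unadjusted p under 0.05 there were 15 lower and 1 higher, where the shares of all genes were 17.5% lower and 12.7% higher. The median change of the 35 genes was -0.25 (log2), and that of all genes was -0.04. The change was below 0 in 29 of the 35 genes and in 56.1% of all genes.

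**Figure D1:**
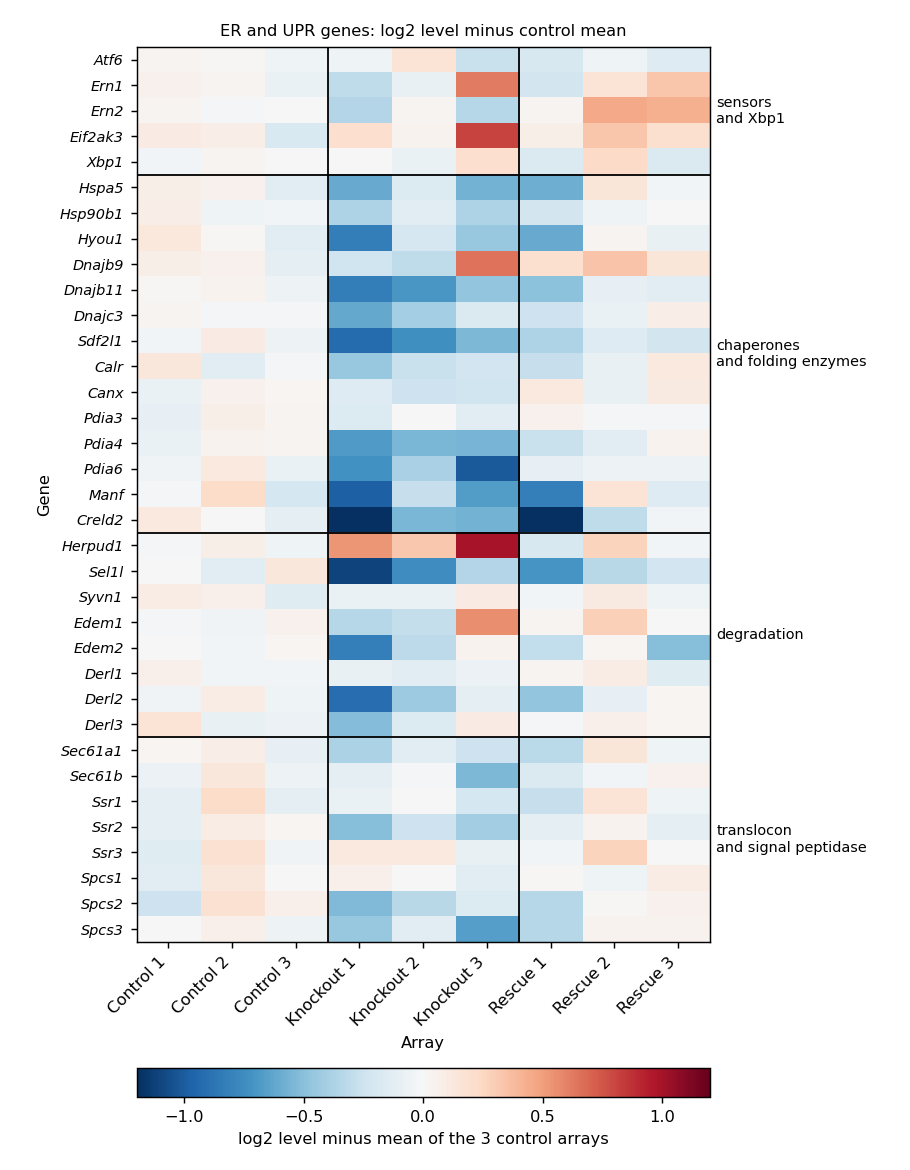
Log2 level of each of the 35 measured genes (rows, grouped by role) on each of the 9 arrays (columns), minus the mean of the 3 control arrays. Blue is below and red above that mean, and the colour scale ends at -1.2 and 1.2. The chaperone rows are blue in the knockout columns except for Dnajb9 in array 3 and Pdia3 in array 2, while Herpud1 is red in all 3 of them.

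The sensors and Xbp1 gave 0 calls among 5 genes in limma, where 14.1% of all genes were called in either direction. At an unadjusted p under 0.05 there were also 0, against 17.5% lower and 12.7% higher over all genes. The median change of the 5 was 0.04, and in none of them did the knockout arrays separate from the control arrays. Eif2ak3, the kinase that slows translation, read 9.25, 9.22 and 8.97 in control arrays and 9.35, 9.18 and 9.95 in knockout arrays. In rescue arrays it read 9.22, 9.47 and 9.33. Knockout arrays 1 and 3 lay above all control arrays and array 2 among them, so knockout and control overlapped (change 0.35 ± 0.19 SE, adjusted p = 0.27). Ern2, the sensor known from goblet cells, read 6.14, 6.09 and 6.10 in control arrays and 5.76, 6.14 and 5.77 in knockout arrays. These levels lie in the dimmest 40% of genes, where background flattens a change, and the difference did not pass (-0.22 ± 0.15, adjusted p = 0.37). Ern1 read 8.03 to 8.16 in control and 7.80, 8.02 and 8.73 in knockout, again with array 3 highest. Xbp1 read 12.11 to 12.17 in control and 12.06 to 12.34 in knockout, and its change had a 95% interval of -0.26 to 0.34. The part of Xbp1 that its probe sets read was not analysed here, so the splicing of its mRNA is not measured. Atf6 lay within -0.32 to 0.22 of no change by the same interval.

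Among the chaperones and folding enzymes 4 of 14 fell and 0 rose (28.6% and 0%, against 8.77% and 5.29% of all genes). The change was below 0 in 13 of the 14, the median was -0.47, and in 12 every knockout array lay below every control array, which held for 19.7% of all genes. Sdf2l1, a partner of the co-chaperone Dnajb11, read 9.69, 9.82 and 9.66 in control arrays, 8.80, 8.98 and 9.18 in knockout arrays and 9.35, 9.57 and 9.50 in rescue arrays. The 3 groups did not overlap, and rescue lay between the others. The fall from control to knockout was 0.74 ± 0.12 on the log2 scale (-0.74, 1.66-fold, adjusted p = 0.0068). Dnajb11 (ERdj3), which hands unfolded proteins to the chaperone Hspa5, read 10.84, 10.87 and 10.76 in control arrays, 9.99, 10.12 and 10.35 in knockout arrays and 10.33, 10.72 and 10.69 in rescue arrays. Its change from control to knockout was -0.67 ± 0.14 (1.59-fold, adjusted p = 0.016). The lowest rescue array lay below the highest knockout array, so those groups overlapped.

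Both of the protein disulfide isomerases that passed fell by a like amount. Pdia4 read 9.88, 10.00 and 9.99 in control arrays, 9.28, 9.41 and 9.40 in knockout arrays and 9.69, 9.84 and 10.00 in rescue arrays. The knockout arrays lay within 0.13 of each other and below all others, with a change of -0.60 ± 0.11 against control (1.51-fold, adjusted p = 0.0087). Pdia6, whose promoter stretch is printed above, read 10.04, 10.20 and 10.00 in control arrays, 9.35, 9.69 and 9.07 in knockout arrays and 9.98, 10.01 and 10.02 in rescue arrays. Knockout array 3 was its lowest, unlike Sdf2l1 and Dnajb11, where array 1 was lowest. The change of Pdia6 was -0.71 ± 0.15 (1.63-fold, adjusted p = 0.018). Pdia3, the isomerase that works with the lectins Calr and Canx, changed by -0.10 ± 0.09 (adjusted p = 0.54), with an interval of -0.31 to 0.11.

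Hspa5 (BiP), the main ER chaperone and the partner that keeps the sensors inactive, read 12.81, 12.79 and 12.62 in control arrays and 12.13, 12.58 and 12.17 in knockout arrays. All knockout arrays were below all control arrays, yet the spread between knockout arrays was wide and the change of -0.45 ± 0.20 did not pass (adjusted p = 0.17). Its interval ran from -0.90 to 0.01, which includes falls larger than those called. The same held for Creld2, a protein secreted under ER stress, with the lowest estimate of all 35 genes, -0.80 ± 0.31 (adjusted p = 0.12). Creld2 read 9.68, 9.55 and 9.45 in control arrays, 8.29, 9.01 and 8.99 in knockout arrays and 8.34, 9.25 and 9.53 in rescue arrays, so 1 array in each of the last 2 groups lay far below its group. Manf, a secreted stress factor, changed by -0.64 ± 0.27 and Hyou1, a large chaperone of the Hsp70 family, by -0.50 ± 0.20, with adjusted p of 0.15 and 0.14. Hsp90b1 (GRP94), Calr, Canx and Dnajc3, an Hspa5 co-chaperone, had knockout arrays below all control arrays as well, with changes of -0.29, -0.32, -0.21 and -0.40 and adjusted p of 0.11, 0.14, 0.17 and 0.080. Dnajb9 (ERdj4), which represses Ern1, was the exception: it read 11.18, 11.16 and 11.00 in control arrays and 10.88, 10.81 and 11.77 in knockout arrays. Arrays 1 and 2 were below control and array 3 was above it, which gave a change of 0.04 ± 0.23 (adjusted p = 0.94).

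**Figure D2:**
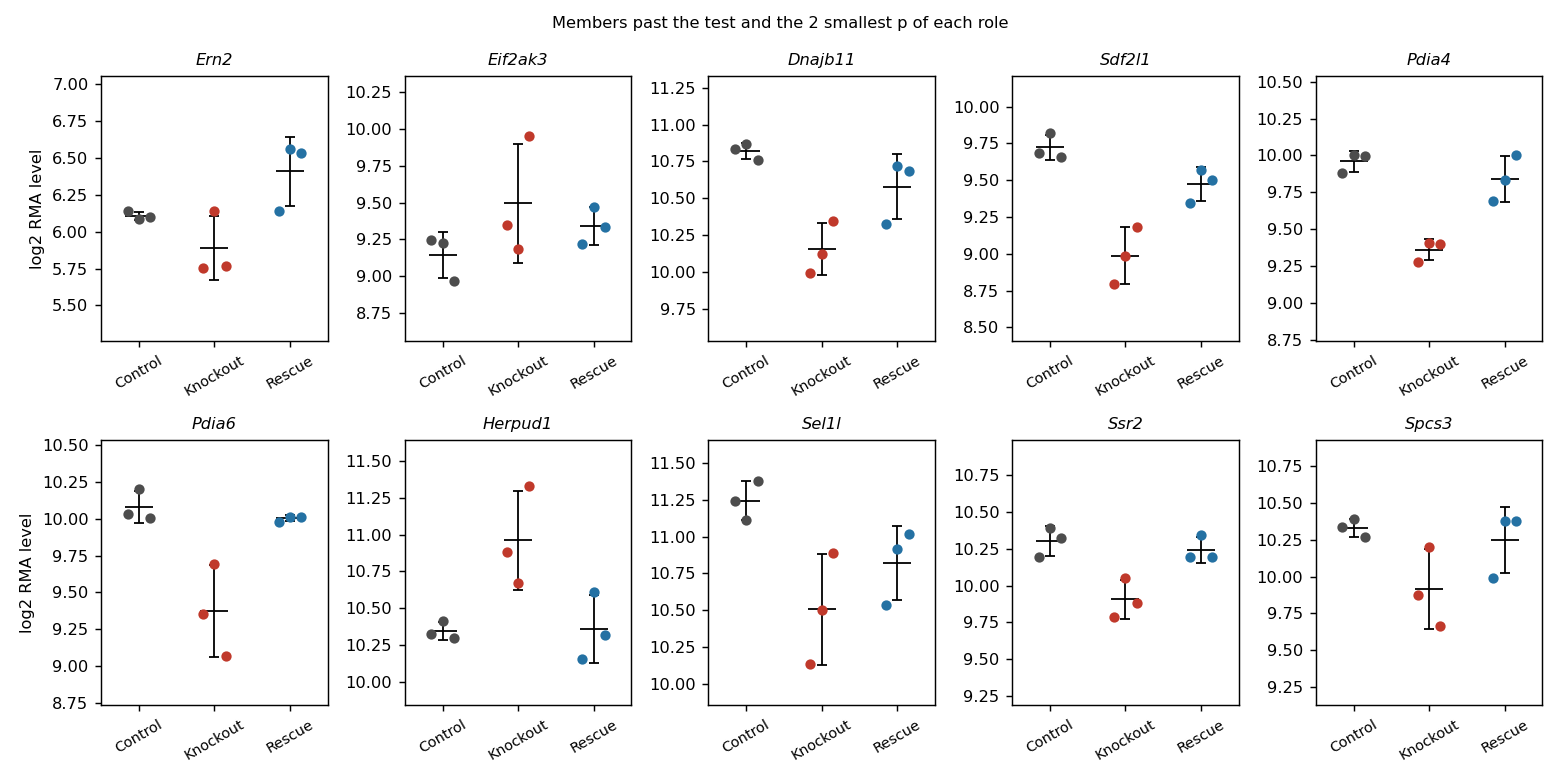
Log2 RMA level on each array (points) for the 10 genes that passed the test in the comparison of knockout with control or had the 2 smallest p of their role, with the group mean (horizontal bar) and SD (whiskers, n = 3 arrays). Every vertical axis spans the same number of log2 units but starts at its own level. Knockout points lie below all control points for Sdf2l1, Pdia4, Dnajb11, Pdia6, Sel1l, Ssr2 and Spcs3 and above them for Herpud1.

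Of the 8 degradation genes 1 fell and 0 rose (12.5% and 0%, against 8.77% and 5.29% of all genes). The 8 estimates ran from -0.74 to 0.62 with a median of -0.15. Sel1l read 11.24, 11.11 and 11.38 in control arrays, 10.14, 10.50 and 10.89 in knockout arrays and 10.54, 10.92 and 11.01 in rescue arrays. The knockout arrays were below all control arrays and spread over 0.75, and the change was -0.74 ± 0.20 (1.67-fold, adjusted p = 0.044). Syvn1 (Hrd1), the ubiquitin ligase that Sel1l holds, read 9.16, 9.13 and 8.92 in control arrays and 8.99, 8.99 and 9.17 in knockout arrays, a change of -0.02 with an interval of -0.26 to 0.22. Herpud1, a further part of that complex, stood higher in every knockout array. It read 10.32, 10.42 and 10.30 in control arrays, 10.88, 10.67 and 11.33 in knockout arrays and 10.15, 10.61 and 10.31 in rescue arrays. The change of 0.62 ± 0.18 (1.53-fold) missed the threshold with adjusted p = 0.055, and it was the only one of the 35 genes with all knockout arrays above all control arrays, against 12.7% of all genes. Of the 9 fits that left out 1 array, Herpud1 passed in 1, that without knockout array 2 (0.76, adjusted p = 0.037). Over these 9 fits its change ran from 0.43 to 0.76 and its adjusted p from 0.037 to 0.16.

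The derlins are membrane proteins that help to pull substrates out of the ER. Derl2 read 10.16, 10.29 and 10.16 in control arrays and 9.29, 9.77 and 10.09 in knockout arrays (-0.49 ± 0.20, adjusted p = 0.15), while Derl1 changed by -0.09 and Derl3 by -0.20. Edem1 and Edem2 belong to the family that trims mannose from misfolded glycoproteins. In knockout arrays Edem1 read 9.47, 9.52 and 10.37 against 9.77 to 9.87 in control, and Edem2 read 8.96, 9.46 and 9.82 against 9.75 to 9.80. In both genes the first 2 knockout arrays lay below control and the third above it.

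In the translocon and signal peptidase 1 of 8 genes fell and 0 rose (12.5% and 0%, against 8.77% and 5.29% of all genes). The median change of the 8 was -0.24. Ssr2 read 10.19, 10.39 and 10.32 in control arrays, 9.79, 10.05 and 9.88 in knockout arrays and 10.19, 10.35 and 10.19 in rescue arrays. The knockout arrays were the lowest 3 of the 9, and the change of -0.39 ± 0.11 (1.31-fold, adjusted p = 0.042) was the smallest of those that passed. Ssr1 and Ssr3, partners of Ssr2 in the same complex, changed by -0.09 and 0.05 (adjusted p = 0.73 and 0.86). Spcs3, a subunit of signal peptidase, read 10.34, 10.39 and 10.27 in control arrays and 9.87, 10.20 and 9.67 in knockout arrays (-0.42 ± 0.16, adjusted p = 0.12). In rescue arrays Spcs3 read 9.99, 10.38 and 10.37. Spcs2 changed by -0.34 (adjusted p = 0.20) and Spcs1 by -0.03 (adjusted p = 0.90). Sec61a1, the channel through which proteins enter the ER, changed by -0.25 and Sec61b by -0.23, and neither passed (adjusted p = 0.25 and 0.35).

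The calls differ in how far they rest on single arrays. Sdf2l1 and Pdia4 passed in all 9 fits that left out 1 array. Dnajb11 and Pdia6 passed in 6 of 9, since leaving out any control array raised their adjusted p to between 0.055 and 0.073, so that 2 of the 35 genes were called without control array 1, 2 or 3. Sel1l did not pass without any 1 of the control arrays (adjusted p = 0.092 to 0.146), knockout array 1 (0.11), knockout array 2 (0.097), rescue array 2 (0.068) or rescue array 3 (0.057). Ssr2 did not pass without any 1 of the control arrays (0.072 to 0.139), knockout array 1 (0.12) or rescue array 1, 2 or 3 (0.061, 0.057 and 0.059). Without knockout array 3, 8 genes were called, all lower, with Derl2 and Dnajc3 added, and without rescue array 1 Creld2 was called. The shares of all genes called in the fits without an array are not given here.

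Knockout array 3 differed from the other 2 in which ER genes it held high. It gave the highest value of all 9 arrays for 6 genes: Ern1, Eif2ak3, Dnajb9, Herpud1, Edem1 and Edem2. It also gave the lowest value of all 9 arrays for 5 genes, namely Atf6, Pdia6, Sec61b, Spcs1 and Spcs3. Knockout array 1 held the lowest value for 21 of the 35 genes. Such counts were not made over all genes, so they have no background to set them against. The median SD over all genes was 0.23 in knockout and 0.10 in control. Over the 35 genes it was 0.22 and 0.09. The chaperone median was -0.65, -0.29 and -0.46 in arrays 1, 2 and 3, and the degradation median was -0.43, -0.23 and 0.07.

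Other probe sets of the same genes mostly gave the same sign. The 35 genes had 86 probe sets in all, with more than 1 for 25 genes, and 43 of the 51 probe sets that were not chosen had the sign of the chosen one. Over all single-symbol probe sets, 7 of these 51 passed in the comparison of knockout with control, all lower and all in genes whose chosen probe set did not pass: Dnajc3, Calr and Canx. That is 13.7% of the 51, where 10.7% of all 34945 single-symbol probe sets passed, 6.55% lower. In Dnajc3 the 4 further probe sets changed by -0.54 to -0.69, against -0.40 for the chosen one. A further probe set of Canx changed by -0.63 (adjusted p = 0.0098), and a further 2 of Calr by -0.45 and -0.46 (adjusted p = 0.0498 and 0.048). The probe sets disagreed in Pdia4, where a dim second probe set changed by 0.10, and the mean of both gave -0.25 with adjusted p = 0.18. Of the 39 further probe sets that were not dim, 34 had the sign of the chosen one. Opposite signs stood in 1 probe set each of Hspa5 (0.03 ± 0.09, against -0.45), Sec61a1 (0.29, against -0.25) and Edem1 (0.30, against -0.02), and in Xbp1. The remaining probe sets of Hspa5 and Sec61a1 had the sign of the chosen one. The further Herpud1 probe set changed by 0.50 (adjusted p = 0.11), and those of Xbp1 by between -0.14 and 0.03.

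**Figure D3:**
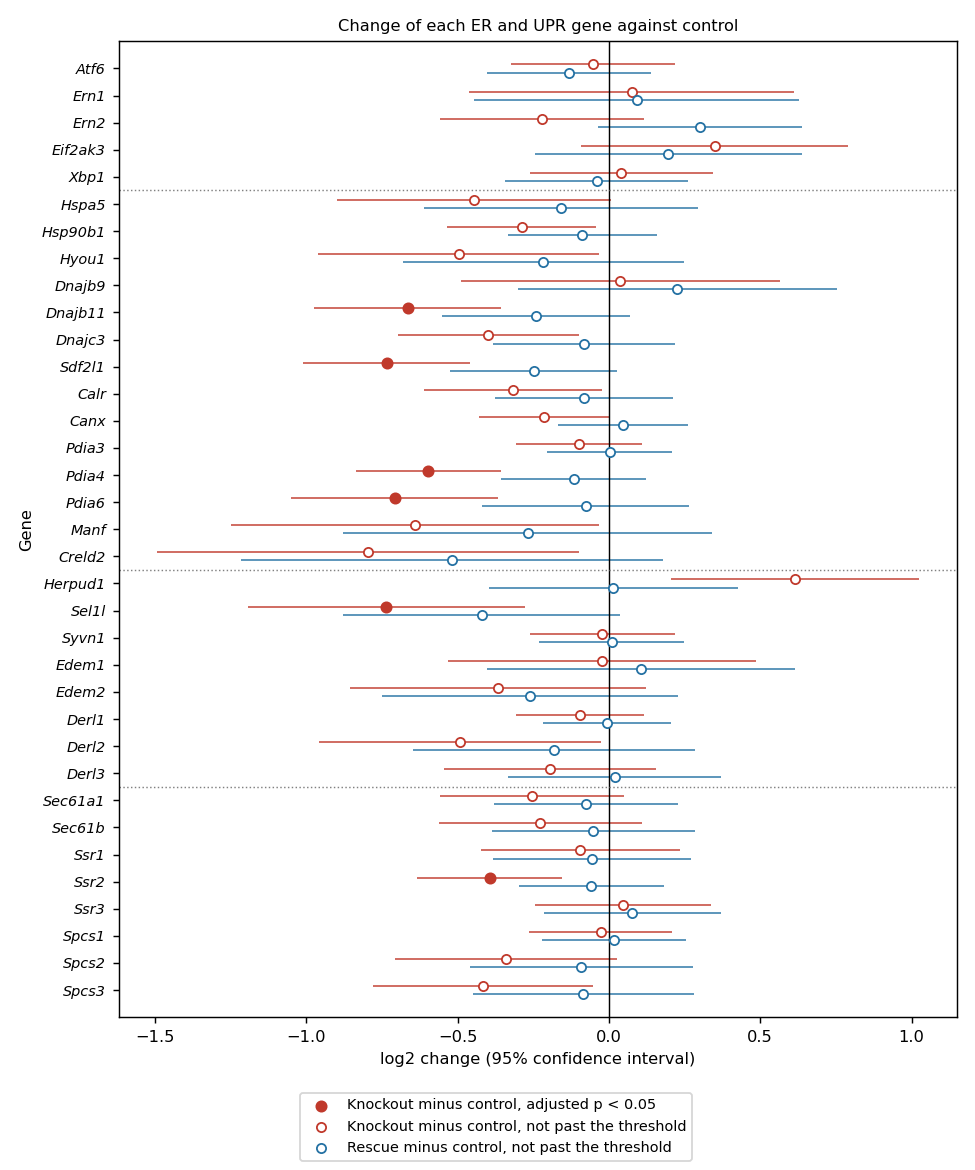
Log2 change of each of the 35 genes from control to knockout (red) and from control to rescue (blue), with limma's 95% confidence interval; filled points have an adjusted p under 0.05, and dotted lines part the roles. The 6 filled points are all red and lie between -0.74 and -0.39. The 2 comparisons share the control arrays.

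Genes with the promoter element differed in how far they changed. The 9 genes with an exact ERSE had a median change of -0.32, from -0.80 for Creld2 to -0.02 for Syvn1. Of these, 1 passed, Pdia6, where 8.77% of all genes were called lower. In 7 of the 9 every knockout array lay below every control array, against 19.7% of all genes. Chaperones and folding enzymes made up 7 of the 9, so element and role cannot be told apart. Of the 16 measured genes with a window and neither element, 3 passed (Sdf2l1, Pdia4 and Sel1l). In 4 of the 16 every knockout array lay below every control array, and the median change of the 16 was -0.10. The 8 genes with no window had a median of -0.32, like the ERSE genes, and in 6 of the 8 the knockout arrays lay below all control arrays. The ERSE-II genes had estimates of opposite sign, with Dnajb11 at -0.67 and Herpud1 at 0.62.

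The comparison of rescue with knockout asks whether a Tfr1 that binds transferrin poorly alters these transcripts. In limma 0 of 35 genes passed, where 2.31% of all genes did, 1.23% higher and 1.08% lower. At an unadjusted p under 0.05 there were 8 higher and 1 lower in rescue, against 9.98% and 8.91% of all genes. The change was below 0 in 4 of the 35, against 42.9% of all genes, and the median was 0.21 against 0.04 for all genes. It was above 0 in all 14 chaperones, with a median of 0.28. Rescue arrays lay above all knockout arrays in 5 genes, Sdf2l1, Canx, Pdia4, Pdia6 and Ssr2, and below them in Herpud1, where 10.6% and 7.5% of all genes did so. This comparison shares the knockout arrays with the one above, so the 2 are not independent.

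The largest estimate upward was that of a folding enzyme. Pdia6 was higher in rescue by 0.63 ± 0.15 (adjusted p = 0.073), Sdf2l1 by 0.49 ± 0.12 (adjusted p = 0.082) and Pdia4 by 0.48 ± 0.11 (adjusted p = 0.057). Dnajb11 was higher by 0.42 ± 0.14 (adjusted p = 0.15). Ssr2 was higher by 0.34 ± 0.11 (adjusted p = 0.14) and Sel1l by 0.31 ± 0.20 (adjusted p = 0.44). Herpud1 was lower by 0.60 ± 0.18 (-0.60, adjusted p = 0.13). Ern2 read 6.14, 6.56 and 6.53 in rescue and was higher than in knockout by 0.52 ± 0.15 (adjusted p = 0.11), with a knockout level in the dim range. Without knockout array 3, 7 genes were called higher (Dnajb11, Dnajb9, Dnajc3, Edem1, Pdia4, Pdia6 and Sdf2l1), and Pdia6 alone was called without knockout array 2. The shares of all genes called in those fits are not given here, so these counts have no background to set them against.

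The comparison of rescue with control gave 0 calls among the 35 genes in limma and 0 at an unadjusted p under 0.05, where 0.126% and 6.62% of all genes passed. The median change was -0.08, and the mean of rescue lay between those of control and knockout in 23 of the 35 genes (65.7%, against 56.6% of all genes). Rescue arrays stood below all control arrays in Dnajb11, Sdf2l1 and Sel1l and above them in Dnajb9, against 9.9% and 6.74% of all genes. The 95% intervals of the change were -0.55 to 0.07 for Dnajb11, -0.53 to 0.03 for Sdf2l1 and -0.88 to 0.04 for Sel1l, so falls of the size seen in the knockout lie within the interval of Sel1l. The interval of Pdia6 was -0.42 to 0.27 and that of Pdia4 -0.36 to 0.12, and neither reaches the change these genes showed in the knockout. Rescue array 1 was the lowest rescue array in 26 of the 35 genes, a count not made over all genes. This array read 12.15 for Hspa5 against 12.88 and 12.71 in the other 2, and 9.71 for Manf against 10.69 and 10.38. Without it the median change of the 35 genes was 0.0086 in place of -0.08.

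Markers of other cell types moved with the groups, and their part in these results was not tested. The epithelial list of 9 genes had a summed level, as log2, of 15.37 to 15.39 in control, 15.72 to 15.82 in knockout and 15.45 to 15.58 in rescue. Of these 9, 4 rose in knockout and 1, Cdx2, fell (-0.74 ± 0.14, adjusted p = 0.011 in limma). The 11 enterocyte markers summed to 17.05 to 17.08 in control, 16.86 to 17.10 in knockout and 17.03 to 17.09 in rescue. Among them Lct alone was called, lower in knockout (-0.90 ± 0.14, adjusted p = 0.0051) and higher in rescue than in knockout (0.81 ± 0.14, adjusted p = 0.027). The 10 fibroblast markers summed to 10.14 to 10.97 in control, 11.08 to 14.70 in knockout and 11.22 to 12.21 in rescue. In knockout array 3, where the fibroblast median was 0.12 above control, the chaperone median was -0.46. Plasma cells and pancreatic acinar cells carry much ER. Of the 9 plasma cell markers, 4 were dim in every group, among them Jchain and Tnfrsf17, and the summed level was 10.57 to 10.75 in control, 9.47 to 9.87 in knockout and 9.95 to 10.61 in rescue. Of these 9, Prdm1 fell in knockout (-1.72 ± 0.28, adjusted p = 0.0064) and no other passed. Prdm1 was the brightest of the 9, at 10.01 to 10.28 in control and 7.96 to 8.71 in knockout. Ighm, the next brightest, read 6.97 to 7.05 in control and 7.05 to 7.33 in knockout. The summed level thus mainly follows Prdm1 and does not measure plasma cells. The median of the list lay 0.0043, -0.0091 and 0.0099 from the control mean in knockout arrays 1, 2 and 3. The 11 acinar markers summed to 10.56 to 10.69 in control, 10.53 to 12.54 in knockout and 10.32 to 12.06 in rescue. Ctrb1, a digestive protease, read 10.99 in knockout array 2 and 10.16 in rescue array 3 and at most 8.92 elsewhere, and the chaperone medians of those arrays were -0.29 and -0.02. The 10 goblet cell markers, with Tff3 and Fcgbp brightest, summed to 13.65 to 14.41 in control, 14.94 to 15.16 in knockout and 14.93 to 15.46 in rescue. Of these 10, 3 rose in knockout and 0 fell in limma: Zg16, Clca1 and Spink4. Zg16 rose most, 12.5-fold (3.64 ± 0.32, adjusted p = 6.6e-04). Tff3 and Fcgbp did not pass (adjusted p = 0.12 and 0.11), Muc2 changed by 0.05 and Atoh1 by -0.31. The summed level thus does not show a rise of all goblet markers. Of 10 enteroendocrine markers, 7 rose in knockout and 0 fell, and 9 had all knockout arrays above all control arrays. They summed to 12.25 to 12.42 in control, 13.26 to 13.52 in knockout and 12.76 to 13.00 in rescue. Of 5 Paneth cell markers, 2 rose in knockout: Lyz1, a lysozyme (21.3-fold, 4.41 ± 0.31, adjusted p = 3.1e-04), and Mmp7, a protease (3.13-fold, 1.65 ± 0.16, adjusted p = 9.9e-04). The Paneth list did not move as a set. Itln1 had all knockout arrays below all control arrays (-1.28 ± 0.40, adjusted p = 0.067 in limma). It was called higher in rescue than in knockout (2.37 ± 0.40, adjusted p = 0.026). The other 2, Ang4 and Defa3, were dim in every group. Relative to control, the enteroendocrine median stood at 0.96, 0.99 and 1.10 (log2) on knockout arrays 1, 2 and 3. In bulk RNA, fewer cells of a type and less RNA per cell cannot be told apart.

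**Figure D4:**
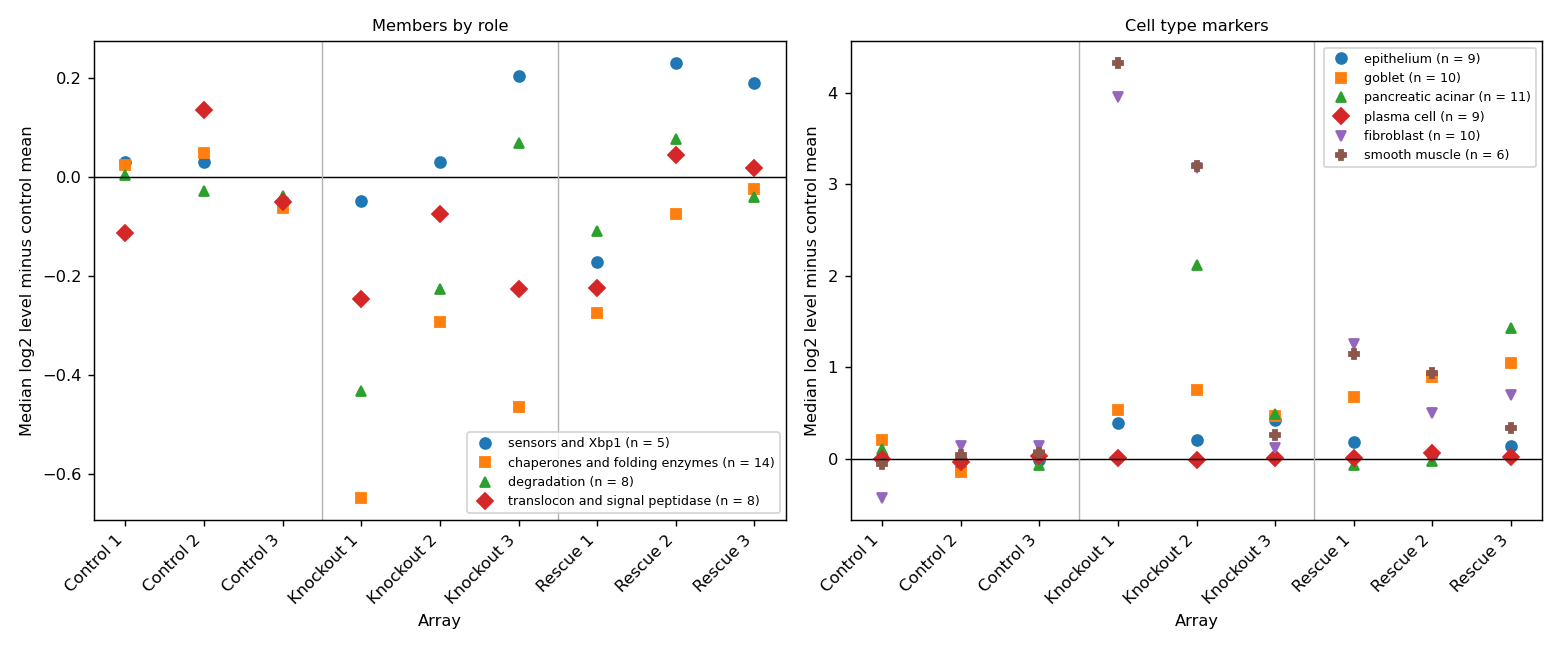
Median, over the genes of a list, of the log2 level minus the control mean on each of the 9 arrays, for the ER genes by role (left) and for markers of 6 cell types (right); the vertical scales differ. The chaperone medians of the knockout arrays lie at -0.65, -0.29 and -0.46, while the fibroblast medians of the same arrays lie at 3.96, 3.18 and 0.12.

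The wider pathway gave 19 calls among 140 measured genes of 5 further lists in the comparison of knockout with control, 5 higher and 14 lower (3.57% and 10%, against 5.29% and 8.77% of all genes). Of 22 other genes of the unfolded protein response and stress response, 3 rose and 3 fell. Sil1, which exchanges the nucleotide of Hspa5, read 9.23, 8.94 and 9.08 in control arrays, 8.19, 8.09 and 8.10 in knockout arrays and 8.89, 8.85 and 8.78 in rescue arrays. It fell by 0.95 ± 0.10 (-0.95, adjusted p = 0.0012) and stood higher in rescue arrays than in knockout arrays by 0.71 ± 0.10 (adjusted p = 0.012). Ppp1r15a (GADD34), which reverses the block on translation set by Eif2ak3, read 7.61, 7.38 and 7.47 in control arrays and 9.08, 8.42 and 9.16 in knockout arrays, a rise of 1.40 ± 0.19 (2.64-fold, adjusted p = 0.0035). Wfs1, an ER membrane protein, fell by 0.72 ± 0.12 (-0.72, adjusted p = 0.0068). The stress factor Atf3 and the glutathione-degrading enzyme Chac1 were the further rises, and Mbtps2, the protease that helps to release Atf6, was the further fall.

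Of 32 other folding enzymes and chaperones, 2 rose and 4 fell. Fkbp2, a prolyl isomerase of the ER, read 10.46, 10.48 and 10.46 in control arrays, 9.68, 9.77 and 9.71 in knockout arrays and 10.30, 10.30 and 10.55 in rescue arrays. It fell by 0.74 ± 0.10 in knockout (-0.74, adjusted p = 0.0028) and stood higher in rescue arrays than in knockout arrays by 0.66 ± 0.10 (adjusted p = 0.016). Qsox1, a sulfhydryl oxidase, went the other way, with 0.56 ± 0.10 in knockout (adjusted p = 0.011) and -0.49 ± 0.10 from knockout to rescue (adjusted p = 0.0497). Erp29, an ER protein related to the disulfide isomerases, fell by 0.51 ± 0.13 (-0.51, adjusted p = 0.034). Sil1, Fkbp2 and Qsox1 were the 3 of 140 genes called between rescue and knockout. That is 1.43% higher and 0.714% lower, close to the 1.23% and 1.08% of all genes. Between rescue and control 0 of the 140 were called in limma, where 0.126% of all genes were. At an unadjusted p under 0.05 there were 2 higher and 9 lower, where 6.62% of all genes passed in either direction.

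Of 29 other genes of translocation and N-glycosylation, 5 fell and 0 rose. They included Sec63, a translocon partner of Hspa5 (-0.65 ± 0.14, adjusted p = 0.021), Alg5, which makes the glucose donor for N-glycans (-0.78 ± 0.18, adjusted p = 0.024), and Srp68, part of the signal recognition particle (-0.39 ± 0.11, adjusted p = 0.043). Of 33 genes of transport from the ER to the Golgi, 2 fell and 0 rose: Lman2, a cargo lectin (-0.62 ± 0.15, adjusted p = 0.027), and Preb (SEC12), which starts the COPII coat (-0.90 ± 0.22, adjusted p = 0.029). Of 24 other degradation genes 0 were called in limma, with 4 lower and 0 higher at an unadjusted p under 0.05, and the smallest p was that of Aup1 (-0.34 ± 0.10, adjusted p = 0.064). The count of 19 over the 5 lists was 8, 6 and 6 without control arrays 1, 2 and 3, 10 without knockout array 1 and 43 without knockout array 3. For these fits too, the shares of all genes called are not given here.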

How the data were processed

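RNA of 9 mouse samples was measured on Affymetrix arrays, 3 per genotype. The authors deposited log2 values, 1 per probe set and array; the submitters' processing notes name RMA and Partek 6.5, and which steps each tool made is not given in the sources used here. Per the labels' protocols, cells were released with 2 mM EDTA for 30 min and passed a 70 µm mesh. The 45101 probe sets were used as deposited (column medians 5.93 to 6.00, 0 of 36 array pairs identical). Gene symbols came from the 2016 platform annotation: 34958 probe sets had 1 symbol, 932 several and 9211 none, and 34945 of the first, after array controls were left out, were used. Each of 18193 genes was represented by its probe set with the highest mean.

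The 3 group means were fitted to all arrays with limma 3.58.1 in R 4.3.3 (lmFit, eBayes). Tests were two-sided, with Benjamini-Hochberg adjustment over all genes and a threshold of 0.05. Changes are log2 differences ± SE with 3 arrays per group. The number of arrays limits the precision (median SE 0.147), as there is no read depth. The dimmest 40% of a group's genes were called dim. The fit was tested on simulated data.

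Values on every array are given for every ER gene called in any comparison. They are also given for the 2 genes of each role with the smallest p between knockout and control. Up to 3 called genes per further list are described with values. Others appear by range, or were named after their values were seen. The genes and lists were chosen with earlier results of these data known. Of 116 marker genes in 14 lists, 106 were measured. Alternatives were other probe set rules, a dim filter, quantile normalization, centring, an intensity trend, array weights, fewer groups, a replicate block and leaving out arrays. Protein sequences were not used here. Replicate numbers were checked as pairs.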

Additional observations from a re-analysis of the deposited data

How the results depend on the processing

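Between knockout and control the number of the 35 ER genes called was 5 to 7 under 7 of the 9 other planned settings, against 6. It was 10 (1 higher, 9 lower) with array weights and 3 with only the compared groups in the fit, and 2 to 8 when single arrays were left out. Quantile normalization gave 1 higher (Herpud1) and 4 lower, and leaving out the dimmest 40% gave 1 higher and 6 lower. Centring each array on its median moved the median of all genes to -0.12 and left 33 of 35 genes below 0, against 29, and 26 after quantile normalization. Between rescue and knockout 0 genes were called; 1 was called with the mean of all probe sets, 1 after centring, 3 with array weights, 2 with knockout array 3 as the sole knockout array (a single array, chosen because it stood apart in these data, so no support for a call), and 0 to 7 when single arrays were left out. Between rescue and control 0 were called under every alternative run. The count over the 140 further genes, 19, was 55 with array weights, 9 with only the compared groups, and 6 to 43 when single arrays were left out. Shares of all genes called under these settings are not given here. The counts of the 35 and of the 140 genes under them thus have no background to set them against. The sign of Sel1l from knockout to rescue turned to -0.066 (adjusted p = 0.89) with knockout array 3 as the sole knockout array, and that of Pdia6 from control to rescue to 0.0032 (adjusted p = 1.0) with the mean of all probe sets. The cause was not tested, other than that fits with fewer arrays have fewer degrees of freedom. Same-numbered arrays correlated in their deviations with r of -0.22, 0.34 and -0.01 between knockout and control, 0.40, -0.11 and -0.07 between rescue and knockout, and 0.01, -0.11 and -0.15 between rescue and control. Not every pair exceeded 0.1, so the numbers were not taken to pair the samples. With the replicate block the count was still 6 between knockout and control, 0 in both other comparisons and 16 over the further genes.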
